A study of Lachancea kluyveri with 31 samples.

Results

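The transcription factors Aft1 and Sef1 were compared by their deletion mutants in Lachancea kluyveri, a budding yeast that branched off before the whole-genome duplication of the Saccharomyces cerevisiae lineage. The comparison set aft1Δ cells (strain SkAft1KA22, 4 arrays) against sef1Δ cells (strain SkSef1KA1, 3 arrays), both grown at high iron. These 7 arrays were chosen by the strain and medium in their sample titles, out of 31 arrays in the series. All 5312 measured genes entered the comparison. The 447 genes of chromosome A, whose systematic names start with SAKL0A, are described apart from the 4865 genes of chromosomes B to H.

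In each strain the gene was deleted with a KanMX6 cassette in a MATa ura3 parent, and each genotype was 1 clone. Overnight YPD cultures were diluted to 0.5 OD600/ml into YPD with 400 µM ferrous iron and harvested after 5.5 h at 30 °C. The iron unit is that of the study's text, and the sample labels give the same figure in mM. The replicates were labelled as biological repeats. Further arrays serve as reference where they are named. They are 4 arrays of the undeleted parent (WT) and 4 of the sef1Δaft1Δ double mutant (both genes deleted, made from the sef1Δ strain) at high iron, and 4 arrays each of aft1Δ, sef1Δ and the double mutant at low iron, where 200 µM of the iron chelator BPS replaced the added iron. Each strain had a slide of its own, so that strain and slide cannot be told apart in the comparison at high iron.

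Aft1 is the activator that, in S. cerevisiae, enters the nucleus when iron is scarce and turns on the iron regulon, the genes for iron reductases, the oxidase and permease of high-affinity uptake, siderophore transporters and heme degradation. Sef1 is a zinc cluster transcription factor that activates iron uptake genes in Candida albicans. The tricarboxylic acid (TCA) cycle oxidizes acetyl units in mitochondria, and its aconitase carries an iron-sulfur cluster. The study profiled the mutants to look at crosstalk between Sef1 and Aft1, and here the single deletions are set against each other.

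Levels are given as log2 signal of 1 probe per gene minus the 75th percentile of the array, so that 0 is the 75th percentile itself. A log2 difference is aft1Δ minus sef1Δ, and a positive value means a higher level in aft1Δ. Calls needed 1.5-fold or more and, in limma, a p of 0.05 or less after Benjamini-Hochberg adjustment. The 75th percentile of raw intensity was 11053 to 18404 on the aft1Δ arrays and 17404 to 23236 on the sef1Δ arrays, each array read 99.01% to 99.59% of its probes well above background, and no spot was saturated. Arrays of 1 strain correlated at a mean r of 0.9939 to 0.9969 across genes, and arrays of different strains at 0.9605 to 0.9618.

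The deleted genes were read first. SEF1 (SAKL0F12342g) stood at -2.10, -2.04, -2.03 and -2.14 on the aft1Δ arrays and at -6.97, -7.30 and -7.62 on the sef1Δ arrays. The groups were far apart, and the difference was 5.22 (SE 0.178, adjusted p = 6.52e-20, 37.3-fold). The WT mean was -1.99, so the aft1Δ arrays held SEF1 near the WT level. AFT1 (SAKL0A04532g) was at -3.03, -2.93 and -2.75 on the sef1Δ arrays, while its probe was not well above background on any aft1Δ array, at -9.57, -9.08, -10.46 and -9.67. AFT1 was therefore at least 50.1-fold lower in aft1Δ (adjusted p = 1.53e-15), a bound taken against the lowest signals still well above background. Its second probe gave a smaller log2 difference of -2.04, and where the probes lie in the deleted stretch is not given in the sources used here. Both genes were low in the strain labelled as lacking them.

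Across the genome, 981 of 5312 genes were called (18.5%). Of these, 762 were higher in aft1Δ (14.3% of all genes) and 219 were lower (4.12%). With 4 arrays against 3, 62.4% of all genes had groups that did not overlap, 59.3% outside chromosome A and 95.5% on it, so that separation alone says little of a gene outside chromosome A. The calls were spread unevenly over the chromosomes. On chromosome A, 347 of 447 genes were called (77.6%), 346 of them higher in aft1Δ (77.4%) and 1, AFT1 itself, lower. Outside chromosome A, 634 of 4865 genes were called (13.0%), 416 higher (8.55%) and 218 lower (4.48%). Chromosome A held 8.41% of the genes and 45.4% of those called higher.

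Nearly every gene of chromosome A read higher in aft1Δ than in sef1Δ. The median log2 difference over its 447 genes was 0.825 (1.77-fold), with quartiles of 0.61 and 1.105, and 442 genes (98.9%) lay above 0. On chromosomes B to H the medians ran from -0.086 to -0.034, and 38.0% to 45.8% of the genes lay above 0. The shift was seen array by array. The chromosome A median, relative to the median of the genes outside it, was 0.82, 0.842, 0.855 and 0.877 on the aft1Δ arrays and -0.067, -0.033 and -0.038 on the sef1Δ arrays. The groups did not overlap and lay 0.894 apart, against SDs of 0.024 and 0.018 within them (exact permutation test, two-sided p = 0.0571, the smallest that 4 against 3 arrays allow). For the other chromosomes the same difference ran from -0.044 on F to 0.053 on C (exact permutation p = 0.114 to 0.971).

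**Figure D1:**
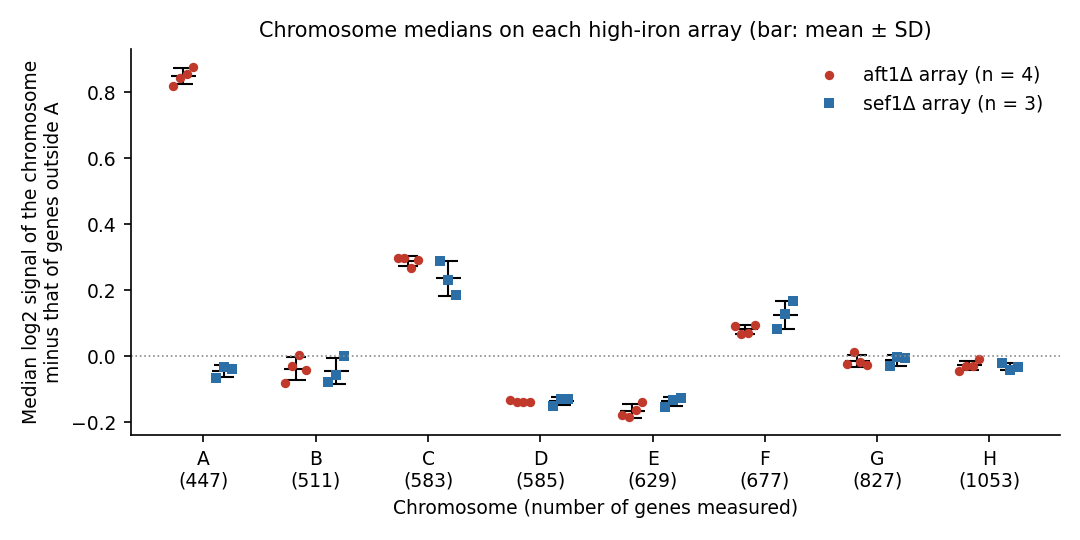
Median log2 signal of each chromosome minus the median of all genes outside chromosome A (vertical axis, log2 units), for the 4 aft1Δ arrays (red circles) and the 3 sef1Δ arrays (blue squares) at high iron, with black bars for mean and SD and the number of genes in brackets. On chromosome A the aft1Δ arrays sit between 0.82 and 0.877 and the sef1Δ arrays between -0.067 and -0.033, while on the other chromosomes the groups lie within 0.053 of each other.

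The same quantity was followed through the other groups of the series. It was 0.859 to 0.948 on the 4 aft1Δ arrays at low iron, with a median of 0.915. On the WT arrays at high iron it was -0.047 to 0.016, and on the sef1Δ arrays at low iron -0.08 to -0.038. The double mutant, which also lacks AFT1 but was made from the sef1Δ strain, had -0.012 to 0.022 at high iron and -0.102 to -0.071 at low iron. The high reading was thus found in both media on the arrays of strain SkAft1KA22, and not on those of the other strain without AFT1. The arrays measured RNA only, and the number of copies of chromosome A in this clone was not tested.

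The shift ran along the whole chromosome. In 9 consecutive blocks of 49 or 50 loci, the median difference was between 0.771 and 0.914, 48 to 50 genes of each block were above 0, and 36 to 41 were called higher. A 2-fold difference would be 1 on this scale, and no block median reached it with the 75th percentile taken over all genes. With the percentile taken only over genes outside chromosome A, the median of the whole chromosome was 0.924. Block medians were not computed under that scaling. By size, 287 genes lay between 1.5-fold and 2.5-fold, 59 above 2.5-fold, and 101 under 1.5-fold or below 0. The difference was smaller at higher probe signal, from a median of 0.972 in the first of 4 bins of the genes of chromosome A, those of weakest signal, through 0.886 and 0.821, to 0.616 in the bin of strongest signal. A second probe of the same genes gave 442 of 447 above 0 and 359 called higher, with a median of 0.845.

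**Figure D2:**
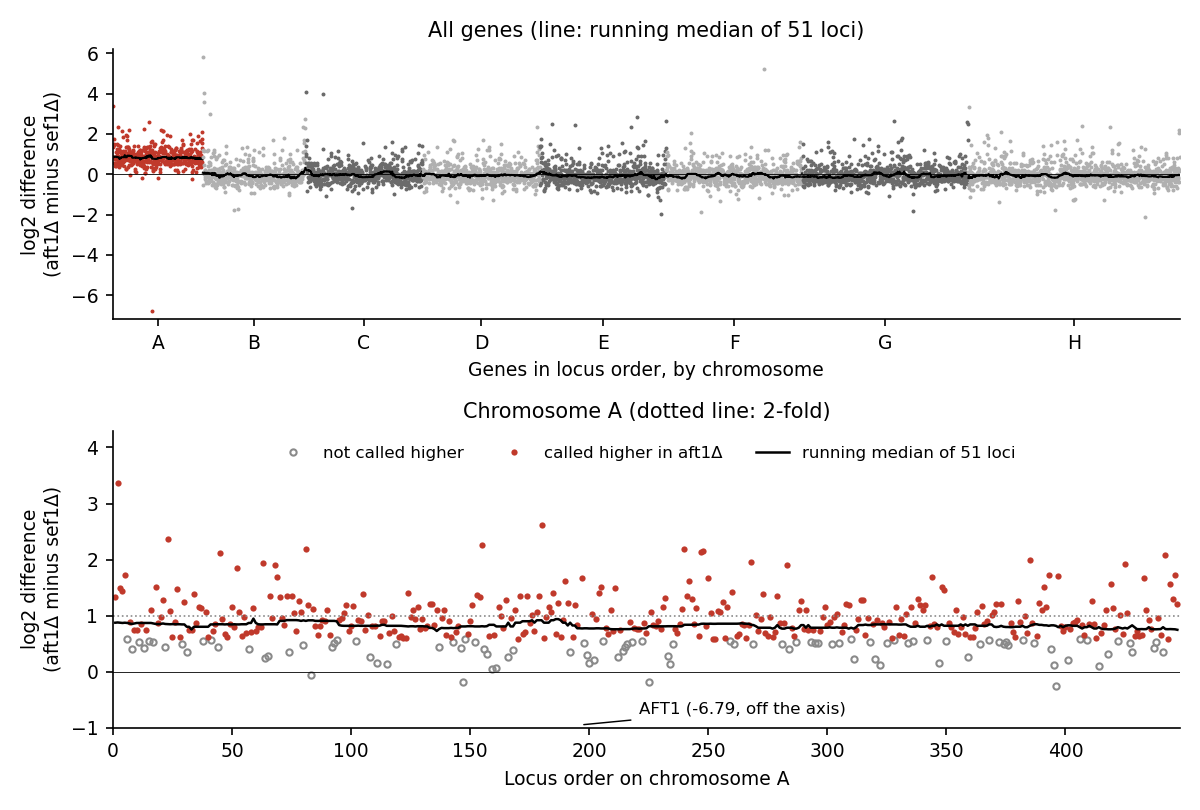
Log2 difference (aft1Δ minus sef1Δ, high iron) of every gene in locus order, for all chromosomes (top) and for chromosome A alone (bottom), with black lines for a running median over neighbouring loci and, in the lower panel, red points for genes called higher, open points for those not called higher and a dotted line at 2-fold. The running median stays near the chromosome A median of 0.825 from end to end and near 0 on chromosomes B to H, and AFT1 is the deep point on chromosome A.

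Lists of genes with a shared function split by chromosome. All 9 mitochondrial ribosomal protein genes on chromosome A were called higher, with a median of 1.11, whereas none of 28 on the other chromosomes was called, at a median of 0.178. All 8 amino acid synthesis genes of chromosome A were called higher (median 0.91), against 5 of 44 elsewhere (median 0.165). Among all genes, 77.4% were called higher on chromosome A and 8.55% outside it, so that the split is that of the chromosomes and not particular to these lists. MET14, the adenylylsulfate kinase of sulfate assimilation, was at -0.10, -0.19, -0.44 and -0.39 in aft1Δ and at -1.64, -1.57 and -1.25 in sef1Δ. HIS7, an enzyme of histidine synthesis, was at 0.57 to 0.73 in aft1Δ and at -0.74 to -0.32 in sef1Δ. Both pairs of groups were apart, at differences of 1.21 (SE 0.154, adjusted p = 2.09e-07) and 1.14 (SE 0.107, adjusted p = 7.09e-10). Relative to their own chromosome they differed by only 0.31 and 0.24 and were not called.

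Some genes of chromosome A stood above the rest of it. The glucosidase gene IMA5 (SAKL0A00154g), the second locus from one end, was at 2.01, 1.68, 1.89 and 1.83 in aft1Δ and at -1.44, -1.14 and -1.98 in sef1Δ, a difference of 3.37 (SE 0.345, 10.4-fold). NIP7, a factor of 60S ribosomal subunit assembly, was at 0.16 to 0.37 against -2.57 to -1.95, a difference of 2.62 (SE 0.189, 6.13-fold), and ENP1, a factor of 40S assembly, was at -0.54 to -0.41 against -2.79 to -2.43, a difference of 2.15 (SE 0.134). SAKL0A00616g (2.37), SAKL0A03630g (2.26) and RRT12, a relative of subtilisin proteases (2.19), completed the largest rises. FOX2, the bifunctional enzyme of peroxisomal fatty acid oxidation, differed by 1.99 (SE 0.191), and MAE1, the mitochondrial malic enzyme, by 1.72 (SE 0.198). All 8 remained called after every chromosome had been centred on its own median in each array, at 2.48, 1.72, 1.25, 1.47, 1.36, 1.29, 1.09 and 0.82 in the order named. After that centring, 35 genes of chromosome A were called higher and 27 lower.

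The genes beside AFT1 did not stand out together. The 3 loci before it, SAKL0A04466g, the mitochondrial ribosomal gene MNP1 and SAKL0A04510g, differed by 0.62, 1.18 and 0.825. The first was not called without aft1Δ replicate 4 (0.57) or with its second probe (0.41). The 3 loci after it, YIG1, SAKL0A04576g and SAKL0A04598g, differed by 1.67, 0.52 and 0.30, of which the last 2 were not called (adjusted p = 0.00381 at 1.43-fold, and 0.0755). The second probe of SAKL0A04576g was called higher (0.759, adjusted p = 1.77e-05). With each chromosome centred on its median, YIG1 was called higher (0.77) and SAKL0A04598g lower (-0.60), and the other neighbours were not called. YIG1, which in S. cerevisiae encodes an inhibitor of anaerobic glycerol production, was at -0.09, -0.28, -0.10 and -0.01 in aft1Δ and at -1.30, -1.86 and -2.20 in sef1Δ. Its WT mean of -0.28 lay with the aft1Δ arrays and the double mutant mean of -2.15 with the sef1Δ arrays. Besides AFT1, 4 genes of chromosome A lay below 0, none of them called, and were picked out after their values were seen. They were ACC1 (-0.055, adjusted p = 0.757) and FAS2 (-0.17, adjusted p = 0.356), which encode acetyl-CoA carboxylase and a subunit of fatty acid synthase, SAKL0A05258g (-0.19, adjusted p = 0.151) and SAKL0A09438g (-0.25, adjusted p = 0.209).

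Outside chromosome A, the TCA cycle list of 21 genes, none of which lies on chromosome A, gave 5 genes called higher in aft1Δ and 1 lower, beside 13.0% called in either direction among all genes there. Its median was -0.044, and under quantile normalization 0.034, so that its sign turned with the scaling. The 5 genes called higher were in the step from citrate to 2-oxoglutarate and in fumarase. IDP1, another isocitrate dehydrogenase gene of the list, was not called and lay below 0 (-0.259, adjusted p = 0.172). IDH1, a subunit of mitochondrial NAD-dependent isocitrate dehydrogenase, was at 2.02, 2.06, 1.95 and 2.07 in aft1Δ and at 0.72, 0.79 and 0.70 in sef1Δ. IDH2, the partner subunit of the same enzyme, was at 1.86, 1.76, 1.89 and 2.00 against 0.85, 0.76 and 0.78. Neither gene had any overlap between the groups, as was so for 59.3% of all genes outside chromosome A. The differences were 1.29 (SE 0.1, adjusted p = 1.68e-11, 2.45-fold) and 1.09 (SE 0.096, adjusted p = 2.17e-10, 2.12-fold).

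ACO1, the mitochondrial aconitase, was at 2.76, 2.93, 2.86 and 2.67 in aft1Δ and at 2.30, 2.26 and 1.92 in sef1Δ, a difference of 0.65 (SE 0.149, adjusted p = 0.00078) that came to 0.53 and was not called without sef1Δ replicate 3. IDP3, an NADP-dependent isocitrate dehydrogenase that in S. cerevisiae is peroxisomal, was at -3.18 to -3.00 in aft1Δ and at -3.30, -4.69 and -4.86 in sef1Δ (difference 1.22, SE 0.29, adjusted p = 0.00106). The sef1Δ arrays of IDP3 were widely spread, with replicate 1 close to aft1Δ. FUM1, fumarase, was at 0.84 to 0.94 against 0.28 to 0.29 (difference 0.61, SE 0.108), and was not called with arrays scaled to their median (0.54) or after normexp background correction (0.535). By scaling, the list's calls ran from 3 higher and 1 lower to 6 higher and 0 lower. MDH2, the cytosolic malate dehydrogenase, went the other way, at 1.41, 1.37, 1.17 and 1.23 in aft1Δ and at 2.26, 1.96 and 1.61 in sef1Δ, a difference of -0.65 (SE 0.136, adjusted p = 0.000261) that came to -0.49 and was not called without sef1Δ replicate 1. The 4 succinate dehydrogenase genes SDH1 to SDH4 differed by -0.15 to -0.04 and were not called.

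Set beside WT, with which both strains were compared over the same 4 arrays, the called TCA genes had different distances. The WT arrays had a slide and a scan session of their own, so that neither can be told apart from the distance to WT. IDH1 was -0.21 from WT in aft1Δ and -1.51 in sef1Δ, and IDH2 was -0.38 and -1.47, so that sef1Δ lay farther from WT in both. ACO1 was -0.43 in aft1Δ and -1.07 in sef1Δ. IDP3 lay below WT in both, at -1.63 in aft1Δ and -2.85 in sef1Δ, and so did MDH2, at -1.62 and -0.97. FUM1 was 0.41 in aft1Δ and -0.20 in sef1Δ, neither called. Of the 21 genes, 1 was called higher and 10 lower in aft1Δ against WT, and 1 higher and 5 lower in sef1Δ against WT. Among all genes outside chromosome A, 13.0% were called higher and 15.1% lower in aft1Δ against WT, and 8.0% and 9.97% in sef1Δ against WT.

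**Figure D3:**
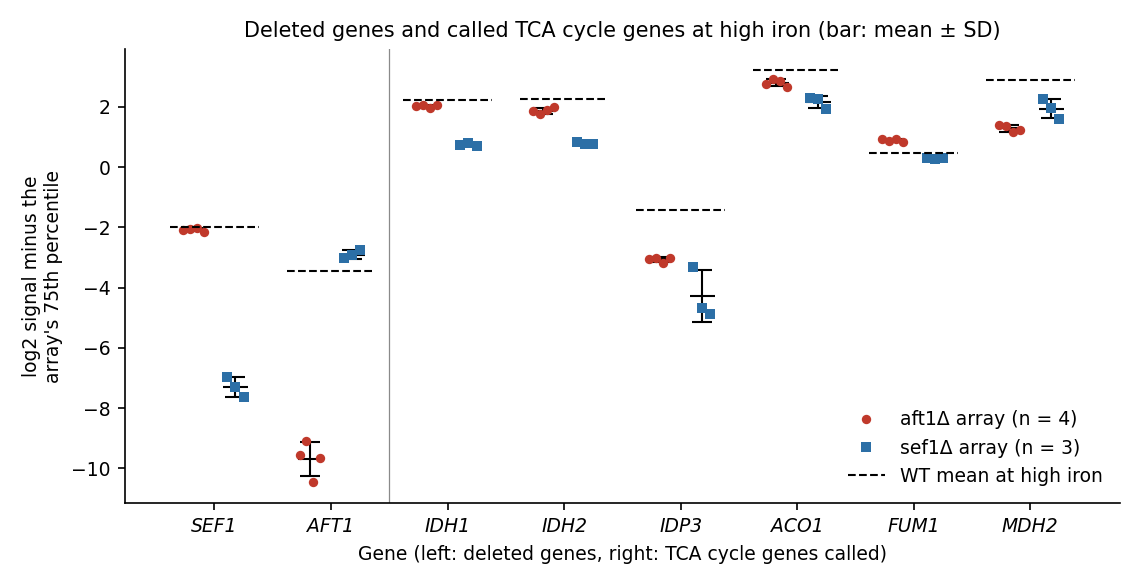
Log2 signal minus the array's 75th percentile for the deleted genes SEF1 and AFT1 and the 6 called TCA cycle genes on the 4 aft1Δ arrays (red circles) and the 3 sef1Δ arrays (blue squares) at high iron, with bars for mean and SD and dashed lines for the WT mean. IDH1 and IDH2 lie near 2 in aft1Δ and at most 0.85 in sef1Δ, MDH2 is the only one of the 6 that is lower in aft1Δ, and SEF1 in aft1Δ lies close to its WT mean of -1.99.

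Few iron uptake genes were called at high iron. The list was drawn up in the study from genes induced by low iron on the WT arrays of this series, so it is not independent evidence of a direction. FRE3 and FRE5, which encode ferric reductases, were called higher in aft1Δ, AFT1 was lower, and the remaining 26 of 29 were not called (10.3% called, against 18.5% of all genes). The median difference of the list was -0.10. Over its 28 genes outside chromosome A it was -0.078, and 0.021 when the percentile was taken only over genes outside chromosome A. FRE3 was at -4.90, -4.93, -4.75 and -4.66 in aft1Δ and at -5.57, -5.47 and -5.62 in sef1Δ (difference 0.745, SE 0.257, adjusted p = 0.0199). The reductase gene FRE5 was at -2.69, -2.80, -2.51 and -2.68 against -3.08, -3.36 and -3.46 (difference 0.63, SE 0.163, adjusted p = 0.00244), and its second probe gave 1.6. The groups did not overlap in either gene, as in 59.3% of all genes outside chromosome A. Without sef1Δ replicate 3 neither was called (0.71 and 0.55), FRE3 was not called without sef1Δ replicate 1 (0.736) nor FRE5 without aft1Δ replicate 3 (0.58), and under quantile normalization both were below the threshold (0.39 and 0.48). Outside chromosome A the list's calls went from 2 higher and 0 lower to 0 higher and 2 lower under quantile normalization, and to 1 higher and 2 lower with arrays scaled to their median.

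The genes with the largest response at low iron differed far less here. FET3, the multicopper oxidase of high-affinity iron uptake, was at -2.59, -2.70, -2.58 and -2.66 in aft1Δ and at -2.25, -2.20 and -2.34 in sef1Δ. Its permease partner FTR1 was at -1.09, -1.17, -1.18 and -1.01 against -0.63, -0.84 and -0.73. SIT1, a transporter of hydroxamate siderophores, was at -3.89, -3.83, -3.83 and -3.78 against -3.42, -3.12 and -3.33. In these 3 genes every aft1Δ array lay under every sef1Δ array, by -0.37 (SE 0.121, adjusted p = 0.0133), -0.38 (SE 0.142, adjusted p = 0.031) and -0.55 (SE 0.127, adjusted p = 0.000897), all short of 1.5-fold. Such separation, in either direction, was found in 59.3% of all genes outside chromosome A. The second probe of FET3 gave -0.584 (adjusted p = 0.00111), that of FTR1 -0.315 and that of SIT1 -0.577, none of them called. SIT1 was called lower without sef1Δ replicate 1 (-0.61), under quantile normalization (-0.68), with arrays scaled to their median (-0.615) and with chromosomes centred (-0.60). ARN1, another siderophore transporter, differed by -0.10 and the reductase FRE2 by 0.43 (adjusted p = 0.076). HMX1, the heme oxygenase, was at -0.52, -1.11, -0.93 and -0.58 against -0.36, -1.23 and -1.81, groups that overlapped and differed by 0.35, or by 0.735 and called without sef1Δ replicate 1.

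At low iron the same 29 genes differed widely between the strains, and the size of that change was tested as an interaction. With the chelator, 23 of the 29 were called lower in aft1Δ than in sef1Δ and none higher, at a median of -2.22 (26.3% of all genes were called at low iron, 9.09% lower). The 23 were AFT1, which is low because it is deleted in aft1Δ, and 22 of the 28 genes outside chromosome A. The interaction, the difference at high iron minus that at low iron, was called for 23 genes, all positive, beside 5.72% of all genes, or 3.03% with a positive sign. All of these lay outside chromosome A, so AFT1 was not among them and the set differed from the 23 called at low iron. FET3 averaged -3.35 in aft1Δ and 3.08 in sef1Δ at low iron. The interaction was 6.07 for FET3 (adjusted p = 1.48e-22), 5.94 for FRE2, 5.62 for SIT1, 5.27 for ARN1, 5.13 for HMX1 and 4.05 for FTR1. A constant offset of a slide drops out of the interaction. It was small for the zinc transporter gene ZRT1 (0.155), the vacuolar copper transporter gene CTR2 (0.098) and FRE1 (0.146). The probe of ARN3 was not well above background in either strain, and its second probe was called higher in aft1Δ at high iron (0.864, adjusted p = 0.00147).

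**Figure D4:**
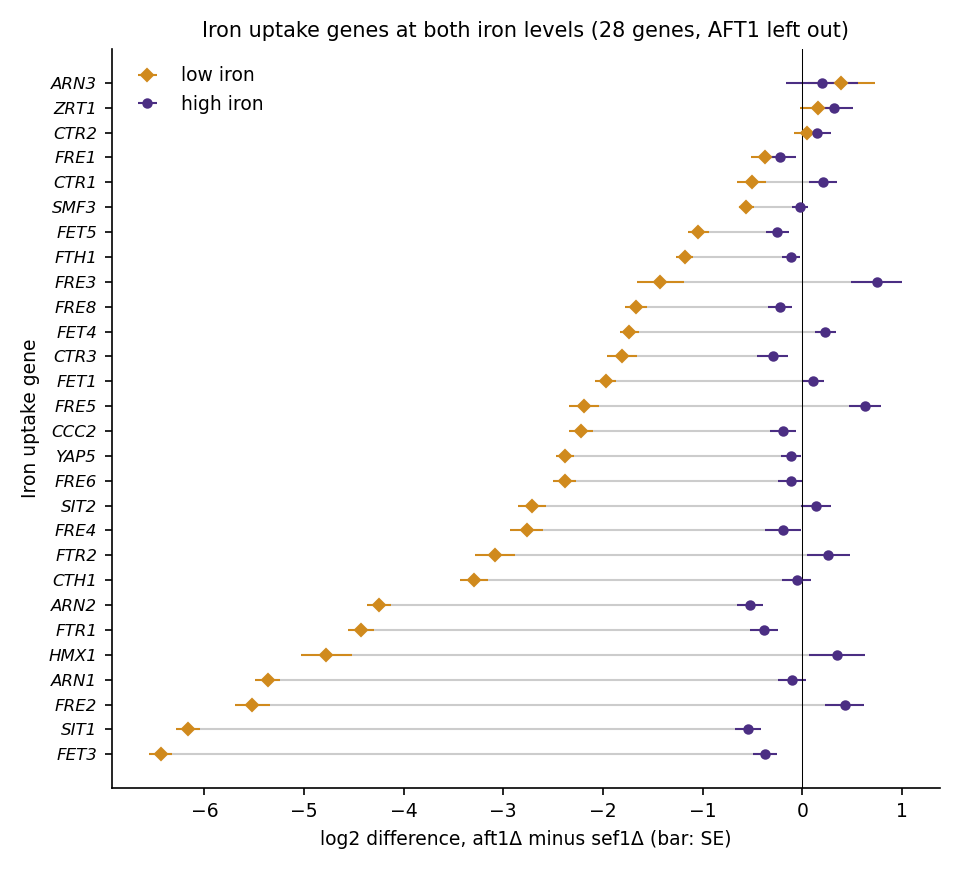
Log2 difference between aft1Δ and sef1Δ (horizontal axis, bars for SE) for 28 iron uptake genes (AFT1 left out), at high iron (purple circles) and at low iron (orange diamonds), in the order of the low-iron difference. The high-iron values lie between -0.546 (SIT1) and 0.745 (FRE3), while the low-iron values reach -6.44 for FET3.

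Of the 20 lists, ribosome biogenesis had the most genes called higher outside chromosome A. This list holds factors that process ribosomal RNA and assemble the subunits in the nucleolus. Of 59 such genes outside chromosome A, 38 were called higher in aft1Δ and none lower, beside 8.55% called higher among all genes there, and their median was 0.865. It stayed between 0.78 and 0.96, with 35 to 43 called, under the other scalings of the arrays. MAK16, a factor of 60S assembly, was at -0.91, -0.90, -0.84 and -1.02 in aft1Δ and at -2.95, -2.90 and -2.32 in sef1Δ (difference 1.81, SE 0.156, 3.5-fold). RLP24, a ribosomal-like protein of 60S precursors, was at -0.16, -0.06, -0.20 and -0.21 against -1.97, -2.0 and -1.57 (1.69, SE 0.166), and NOP9, which acts in 40S synthesis, was at 0.30 to 0.41 against -1.44 to -0.97 (1.59, SE 0.114). In these 3 genes the aft1Δ arrays lay close together and well above all sef1Δ arrays, of which replicate 3 was the highest. Next to WT, 43 of the 59 were called higher in aft1Δ and 10 higher and 2 lower in sef1Δ, at medians of 0.886 and 0.109. Among all genes outside chromosome A, 13.0% were called higher in aft1Δ against WT, and 8.0% higher and 9.97% lower in sef1Δ. At low iron the median difference between aft1Δ and sef1Δ was 0.64, and the interaction was called for 1 gene, beside 5.72% of all genes.

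The ribosomal proteins themselves did not follow. None of 68 cytosolic ribosomal protein genes outside chromosome A was called, and their differences lay between -0.135 and 0.306, at a median of 0.097. With each array scaled to its median this came to 0.027. On chromosome A, 2 of 6 were called higher (33.3%, beside 77.4% of all genes there), RPL36B (0.70, SE 0.18) and RPS2 (0.63, SE 0.136), and both lay under the median of the chromosome. RPS2 was not called with its second probe (0.486), with arrays scaled to their median (0.561) or after normexp background correction (0.529).

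Genes for sugar use held several of the largest single differences. SUC2 (SAKL0B00220g), the invertase that splits sucrose, was at -0.08, 0.05, 0.17 and 0.19 in aft1Δ and at -3.48, -3.86 and -4.47 in sef1Δ. The difference was 4.02 (SE 0.274, adjusted p = 1.18e-12, 16.2-fold), and the WT mean of -2.87 lay between the strains. The double mutant mean of -2.62 lay between them too. The isomaltase genes IMA5 (SAKL0C00176g) and IMA1 (SAKL0C02112g) differed by 4.06 (SE 0.498) and 3.96 (SE 0.419), but their probes can bind more than 1 gene, and a second probe of IMA1 gave 1.65. HXT2, a hexose transporter, was at 3.04, 3.16, 2.91 and 3.29 against 0.65, 0.56 and 0.58 (2.5, SE 0.15, 5.66-fold), and HXT1 (SAKL0B12540g) was at 1.2 to 1.42 against -1.44 to -0.79 (2.36, SE 0.225). All 4 HXT2 values in aft1Δ were far above its WT mean of -0.18, and the double mutant averaged 1.79. Of the 19 hexose transport and reserve carbohydrate genes outside chromosome A, 5 were called higher and 3 lower (26.3% and 15.8%, beside 8.55% and 4.48% of all genes there). The 3 lower ones belong to glycogen metabolism. They were GLG2, a primer of glycogen synthesis (-0.91, SE 0.113), the debranching enzyme GDB1 (-0.72, SE 0.176) and the synthase GSY1 (-0.71, SE 0.147).

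Among fermentation and acetate genes the calls were mostly lower. PDC1, pyruvate decarboxylase, was at -0.58, -0.72, -0.70 and -0.86 in aft1Δ and at 1.22, 1.17 and 1.02 in sef1Δ. The difference was -1.85 (SE 0.133, adjusted p = 3.05e-12, 3.61-fold). ALD4 and ALD5, mitochondrial aldehyde dehydrogenases, differed by -0.99 (SE 0.189) and -0.96 (SE 0.201), and GPD1, glycerol-3-phosphate dehydrogenase, by -0.62 (SE 0.155). These were the 4 called lower of the 32 glycolysis and fermentation genes outside chromosome A (12.5%, beside 4.48% of all genes there), and PFK26, a 6-phosphofructo-2-kinase, was called higher (0.59), though not without sef1Δ replicate 3 (0.43), aft1Δ replicate 1 (0.56) or aft1Δ replicate 3 (0.58). Of 24 genes of the glyoxylate cycle, gluconeogenesis and fatty acid oxidation, POT1 (1.13), PXA1 (1.06) and PCK1 (0.98) were called higher (12.5%, beside 8.55% of all genes there). JEN1, the lactate and pyruvate permease, was at -3.38, -3.63, -3.42 and -3.38 against -2.36, -1.53 and -2.30 (-1.39, SE 0.382, adjusted p = 0.00406).

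Further large differences lay at single genes. FLO1 (SAKL0H00176g), a cell wall lectin of flocculation, was at -0.32, -0.07, -0.06 and 0.14 in aft1Δ and at -3.32, -3.49 and -3.47 in sef1Δ (3.35, SE 0.115, 10.2-fold). Its WT mean of -3.45 lay with the sef1Δ arrays. SAKL0B00946g differed by 2.97 (SE 0.176). SAKL0B00154g and SAKL0B00286g were not well above background on any sef1Δ array, and were at least 33.8-fold and at least 4.12-fold higher in aft1Δ (adjusted p = 1.98e-11 and 3.26e-09). In the other direction, PTR2, the peptide transporter, was at -1.28, -1.21, -1.22 and -1.16 against 0.73, 0.74 and 0.79 (-1.97, SE 0.315, 3.92-fold), and THI4, of thiazole synthesis, was at 1.36, 1.45, 1.32 and 1.23 against 3.20, 3.14 and 3.11 (-1.81, SE 0.196, 3.51-fold). In both genes the WT mean, 0.73 and 3.05, lay with the sef1Δ arrays. The double mutant, which also lacks AFT1, averaged 3.34 for THI4, near the sef1Δ arrays. Its means of 0.18 for PTR2 and -2.28 for FLO1 lay between the strains. It averaged -4.03 for SAKL0B00154g and -5.18 for SAKL0B00286g, nearer the aft1Δ means (-3.53 and -6.56) than the sef1Δ means (-9.34 and -10.13). The loci SAKL0H10670g and SAKL0C05654g, both named PDR12 after the weak acid exporter, differed by -1.78 (SE 0.385) and -1.66 (SE 0.399). SAKL0B04070g (-1.78) and SAKL0B04576g (-1.74, with 1 sef1Δ spot left out as a marked outlier) completed the largest falls. The double mutant averaged -3.5 and -0.15 at these loci, above the means of both strains. At the PDR12 loci it averaged 0.59 and 0.54, between the strains.

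Genes near chromosome ends were called higher more often than genes outside chromosome A as a whole, though most of the 416 rises lay elsewhere. Among the 10 loci nearest each end of chromosomes B to H, 47 of 140 genes were called higher (33.6%) and 6 lower (4.29%), beside 8.55% and 4.48% of all genes outside chromosome A. SUC2, FLO1, IMA5, SAKL0B00154g and SAKL0B00286g are among them. The width of 10 loci was chosen after the values were seen, and no test was made of it.

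The remaining lists are set beside the 8.55% called higher and 4.48% called lower among all genes outside chromosome A. Among 24 vitamin and cofactor genes, 5 were called higher (20.8%, but 2 genes with arrays scaled to their median) and THI4 lower, with THI7, the thiamine transporter, at -2.12, -1.80, -2.43 and -2.35 against -4.12, -3.90 and -3.58 (1.69, SE 0.347) and THI13, of thiamine pyrimidine synthesis, at 1.27 to 1.39 against -0.02 to 0.25 (1.22, SE 0.273). Of 18 phosphate and metal handling genes 4 were called higher (22.2%), led by GIT1, a glycerophosphoinositol permease (1.45, SE 0.193), and SPL2, a regulator of phosphate uptake (1.31, SE 0.2), and PHO2 was lower (-0.60, SE 0.123), but not called without aft1Δ replicate 4 (-0.543) or with the replicate number as a block (-0.55 over all arrays, -0.543 over the 7). SPL2 lay below WT in both strains, at -1.24 in aft1Δ and -2.55 in sef1Δ. The 5 called amino acid genes outside chromosome A (11.4%), all higher, included GDH3, a glutamate dehydrogenase (1.11, SE 0.135), and HIS1 (0.88, SE 0.154). Of 15 purine and pyrimidine genes 2 were higher (13.3%), the CTP synthase URA7 (0.94, SE 0.158) and ADE13 (0.72, SE 0.088), and on chromosome A GCV2, of the glycine cleavage system, differed by 1.41 (SE 0.228). Of 16 heat shock genes 3 were higher (18.8%), HSP30 (0.97, SE 0.322), the co-chaperone AHA1 (0.94, SE 0.139) and HSP26 (0.64, SE 0.207).

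Of 17 iron-sulfur cluster and heme genes outside chromosome A 2 were called (11.8%), close to the 13.0% of all genes there. NAR1, of the cytosolic iron-sulfur machinery, was at -0.99, -1.0, -1.25 and -1.40 in aft1Δ and at -2.04, -2.13 and -2.02 in sef1Δ (0.90, SE 0.11). ISA1, a mitochondrial assembly factor, was at -0.17 to 0.03 against 0.50 to 0.89 (-0.77, SE 0.131), though its second probe gave -0.18. On chromosome A, 3 of 4 were called higher, close to the 77.4% of all genes there. Among them was the ferredoxin YAH1 (0.82, SE 0.156), which was at -0.083 and not called with each chromosome centred on its median. GRX4, a glutaredoxin that in S. cerevisiae relays the iron signal to Aft1, was the single call among 17 oxidative stress genes, at 0.56, 0.48, 0.54 and 0.53 against 1.22, 1.48 and 1.34 (-0.82, SE 0.164). Its groups did not overlap, as in 59.3% of all genes outside chromosome A, and its second probe gave -0.52 and was not called. On chromosome A, the peroxidase gene HYR1 differed by 0.59 and was not called without sef1Δ replicate 1 (0.53), aft1Δ replicate 3 (0.58) or aft1Δ replicate 4 (0.57).

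In the respiratory chain, 1 of 25 genes was called lower (4.0%, beside 4.48% of all genes outside chromosome A), the external NADH dehydrogenase NDE2 (SAKL0D09658g, -0.61, SE 0.146), and the median of the list was -0.27. All 20 mating and pheromone genes outside chromosome A and all 9 proteasome genes lay below 0, at medians of -0.35 and -0.21, but only the pheromone receptor gene STE2 was called (-0.595, SE 0.148), and with the percentile taken outside chromosome A 1 mating gene lay above 0 and none was called. Of 28 DNA replication and histone genes 3 were lower (10.7%, or 1 gene with the percentile taken outside chromosome A), the primase subunit PRI2 (-0.74, SE 0.131), the ligase CDC9 (-0.61, SE 0.129) and RNR3 (-0.60, SE 0.129), while MCM5, on chromosome A, was higher (0.79, SE 0.094). Of 9 ergosterol genes 1 was called lower (11.1%), ERG20 (-0.59, SE 0.136), and MVD1, on chromosome A, was higher (0.62, SE 0.117). Several calls near 1.5-fold did not hold under other settings. With the second probe, NDE2 (-0.40), STE2 (-0.447), ERG20 (-0.435) and CDC9 (-0.30) were not called, nor was any of the 4 with the percentile taken outside chromosome A. PRI2 was also not called with its second probe (-0.56). NDE2 was not called without sef1Δ replicate 1 (-0.57), aft1Δ replicate 1 (-0.54) or aft1Δ replicate 2 (-0.58), nor STE2 without the same arrays (-0.49, -0.57 and -0.56), nor ERG20 without aft1Δ replicate 1 (-0.565), nor CDC9 without sef1Δ replicate 2 (-0.565).

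**Figure D5:**
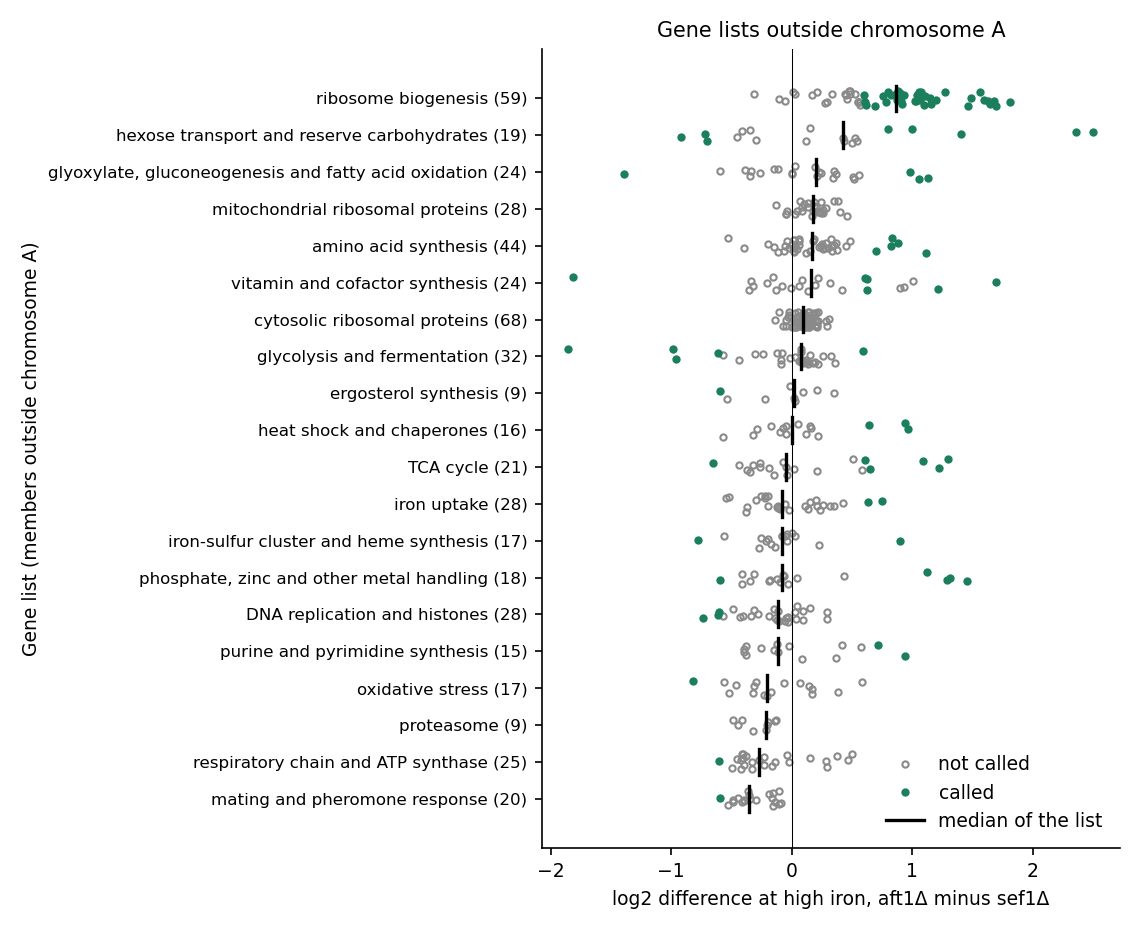
Log2 difference at high iron (aft1Δ minus sef1Δ) of each gene outside chromosome A in 20 gene lists, with the number of genes in brackets, filled points for called genes, open points for the rest and black bars for list medians. The ribosome biogenesis list is centred at 0.865 with 38 of 59 called, and the medians of the other lists lie between -0.351 and 0.429.

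The direction of the calls outside chromosome A depended on how the arrays were scaled. Of the 634 called there, 65.6% were higher in aft1Δ. With quantile normalization 51.3% of 669 calls were higher, with each array scaled to its median 52.1% of 698, and with the 75th percentile taken only over genes outside chromosome A 80.3% of 665. On chromosome A, 99.7% of the calls were higher under each of these scalings. It also depended on the threshold. Outside chromosome A, 42.1% of 1813 calls were higher by the adjusted p alone, and 85.0% of 206 when a 2-fold change was required.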

How the data were processed

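RNA of 31 cultures was hybridized, as fluorescent cDNA primed with oligo-dT, to 1-colour Agilent arrays. The authors scanned them with Feature Extraction 10.5.1.1 and deposited its processed signal intensity and spot marks for each probe. They also deposited a log2 table, which equalled log2 of that intensity minus 1 constant per array, close to the 75th percentile. Here log2 intensity minus the 75th percentile of the array was used, without control and marked outlier spots. Of the 10620 probes, 1 was taken for each of 5312 genes. It came from the study's list of preferred probes for 1998 genes and was the probe named in the study's expression results for 919. For the other 2395 genes the probe of higher mean signal was taken. The probes of 31 genes may bind other genes. Orthologue names were found for 2370 genes. limma 3.58.1 in R 4.3.3 fitted 8 group means over all arrays, and was tested on simulated data. For 7 arrays the smallest two-sided permutation p is 0.0571. Precision is limited by how many arrays there were.

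The members and gene lists were chosen with earlier results of these data known. Genes named were the deleted genes, the called and leading iron uptake and TCA genes, the 8 largest rises and falls outside chromosome A and 5 on it (called, without overlap and above background), 3 loci each side of AFT1, and the 2 largest rises and falls of each other list. The genes below 0 on chromosome A, the third called genes of some lists, SDH1 to SDH4, ZRT1, CTR2, FRE1 and the chromosome ends were picked after their values were seen. Alternatives covered scaling, background correction, probe, threshold, test, replicate block and arrays left out. Columns of fold changes in the study's tables were not used. One gene of the lists is not reported here by name.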

Additional observations from a re-analysis of the deposited data

Results flagged for a closer look

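In the aft1Δ group at high iron, 1 array lay far from the other 3 for 5 of the 79 named genes, where chance gives about 1 in 20 groups. The count was therefore close to the chance rate. SAKL0B04070g was at -5.76 on replicate 4 and at -5.63 to -5.61 on the others. SAKL0A04598g was at -2.72 on replicate 1 against -2.49 to -2.48. PDB1, on chromosome A, was at 3.15 on replicate 4 against 2.84 to 2.87. MAE1 was at 1.36 on replicate 1 against 1.51 to 1.53, and GIT1 (SAKL0G07480g) at -4.52 on replicate 3 against -4.94 to -4.88.

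For 18 of the 79 named genes the difference between aft1Δ and sef1Δ itself differed between the iron levels (limma interaction, difference at high iron minus difference at low iron). Among the iron uptake genes it was 6.07 for FET3 (adjusted p = 1.48e-22), 5.94 for FRE2 (4.06e-17), 5.62 for SIT1 (3.05e-21) and 5.27 for ARN1 (7.11e-19). It was 5.13 for HMX1 (adjusted p = 1.25e-11), 4.05 for FTR1 (2.92e-16), 2.82 for FRE5 (5.53e-11) and 2.17 for FRE3 (9.63e-05). Of the others, THI13 changed by 2.52 (adjusted p = 2.5e-05), from a mean of 0.18 in aft1Δ and 1.49 in sef1Δ at low iron to the opposite order at high iron. HXT2 changed by 1.097 (adjusted p = 0.000569), FOX2 by 0.98 (0.0165) and YIG1 by 0.87 (0.0134). The interaction was negative for RRT12 (-1.27, adjusted p = 0.000142), SAKL0B04576g (-0.74, 0.0277), ACO1 (-0.66, 0.0393), AHA1 (-0.65, 0.0288), SAKL0B04070g (-0.61, 0.00599) and ISA1 (-0.59, 0.0358).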

How the results depend on the processing

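Of 1738 values of the 79 named genes under an alternative, 1611 kept their direction and their side of the threshold, 108 fell below it, 8 rose past it and 11 changed direction. All 11 were genes of chromosome A with that chromosome centred on its own median, at -0.28 (SAKL0A04466g), -0.073 (SAKL0A04510g), -0.38 (SAKL0A04576g), -0.60 (SAKL0A04598g), -0.083 (YAH1), -0.28 (MVD1), -0.20 (RPL36B), -0.27 (RPS2), -0.31 (HYR1), -0.17 (PDB1) and -0.105 (MCM5), as the centring itself implies. Centring left 62 calls on chromosome A. Requiring a 2-fold change gave 352 calls, 146 on chromosome A and 206 elsewhere, with 1 iron uptake and 3 TCA genes. The adjusted p alone gave 2229 and 1813 outside chromosome A. The interaction called 304 genes, 26 on chromosome A and 278 elsewhere. The other probe of each gene called 5 iron uptake genes. The chromosome A median was 0.755 with arrays scaled to their median and 0.924 with the percentile outside chromosome A. These scalings moved the median of all genes to -0.104 and 0.064, and quantile normalization to -0.096. The list medians under other scalings were added after seeing the data. Leaving out 1 array gave 956 to 1029 calls, 342 to 351 on chromosome A, 614 to 684 elsewhere, 2 to 4 iron uptake and 5 to 7 TCA genes, and a chromosome A median of 0.819 to 0.833. The methods' t-test called 989 genes, and 980 after Benjamini-Hochberg adjustment.

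The replicate numbers did not pair the arrays, since the deviations of same-numbered arrays correlated at 0.14, -0.044 and 0.147. With the replicate number as a block, limma called 989 genes over all arrays and 1014 over the 7 compared. Of the named genes, PHO2 lost its call in both (-0.55 and -0.543), and SAKL0A04466g (0.574) and HYR1 (0.566) over the 7 arrays. Strain, clone and slide cannot be told apart in the comparison at high iron, and each genotype was 1 clone. Weak probes have the least precision.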
